A study of Mus musculus with 24 samples.

Results

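The 10 genes described here encode ligands, receptors and extracellular regulators of TGF-beta and activin signalling: Tgfb1, Tgfb2, Tgfb3, Ltbp1, Tgfbr1, Tgfbr2, Tgfbr3, Inhba, Inhbb and Fst. They were taken by gene symbol from a table of 18368 genes, whatever their values, and each symbol occurred on a single row. RNA-seq was performed on full-thickness skin of CD-1 mice aged 7 weeks whose hair cycles were coordinated in telogen, the resting phase. Each of 12 mice was wounded with a punch of 2 mm diameter at a single body site, the abdomen, back or cheek, with 4 mice per site. Every mouse gave a library from the wound on day 3 and a library from adjacent unwounded skin, which made 24 libraries in 6 groups. Cheeks carried a single wound and abdomens and backs a pair, so the number of wounds and the cheek site cannot be told apart. All mice, and so both kinds of library, had received an anaesthetic and an analgesic and had been shaved, no transgene or mutant allele is named, and the unwounded skin came from animals that were themselves wounded nearby. The sample titles reuse mouse numbers 1 to 4 at each site. Since the protocol wounded a mouse at 1 site only, equal numbers at different sites were read as different mice, a reading that the labels do not state outright and on which the count of 12 mice rests.

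TGF-beta ligands are secreted in a latent form, held by a propeptide and tethered to the matrix by latent TGF-beta binding proteins, and they act only after release. The active ligand binds the type II receptor, which recruits and phosphorylates the type I receptor, and the signal passes to the nucleus through SMAD proteins. Activins, dimers of the inhibin beta subunits, use related receptors and the same SMAD branch, and follistatin binds and neutralises them. In wounded skin this pathway is known for its roles in recruiting inflammatory cells, in matrix deposition by fibroblasts and in restraining keratinocyte growth, and activin is known as a ligand that wounds induce.

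The tissue label was checked against marker genes. Summed keratinocyte markers (5 genes, among them Krt5 and Krt14) lay between 5395 and 18236 FPKM and summed fibroblast markers between 2600 and 6557 FPKM, where FPKM is the number of fragments scaled to the length of the transcript and to the mapped fragments of the library. Several libraries stood apart. The unwounded cheek library of mouse 4 held 3331 FPKM of 5 genes of the growing hair shaft and sheath, against 0.05 to 52.7 FPKM in the 23 others, although the skin was described as telogen. Skeletal muscle markers summed to 359 FPKM in the unwounded abdomen of mouse 2 and 1884 FPKM in that of mouse 3, and to between 7960 and 15895 FPKM in the 10 other unwounded libraries. Insulin and other pancreas genes summed to 131 to 414 FPKM in the abdomen wounds of mice 2, 3 and 4 and to 155 and 159 FPKM in the unwounded backs of mice 1 and 3, and to at most 4.08 FPKM in the 19 other libraries.

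The proximal promoters of the 4 genes called in at least 1 comparison of wound with unwounded skin are shown, so that the letters just upstream of each start can be read beside the values. Each line is the 250 bases before the annotated start, in RefSeq on build GRCm38.p6, read 5′ to 3′ on the strand of the gene. In GENCODE a protein-coding transcript begins at the base after each of the 4 windows. RefSeq's gene spans begin at the same base for Tgfb1 and Inhbb, but 3708 bases further upstream for Tgfb2 and 7595 bases further upstream for Inhba, so other starts of these genes lie outside the letters shown. Capitals mark every match, on either strand, to TGANTCA (the AP-1 element), to TGACG (the CRE core), to TATAAA (the TATA box), to CAGAC (the SMAD box) and to GGGCGG (the GC box). The windows are chr7:25686752-25687001 on the plus strand for Tgfb1, chr1:186705990-186706239 on the minus strand for Tgfb2, chr13:16011601-16011850 on the plus strand for Inhba and chr1:119422249-119422498 on the minus strand for Inhbb.
Tgfb1: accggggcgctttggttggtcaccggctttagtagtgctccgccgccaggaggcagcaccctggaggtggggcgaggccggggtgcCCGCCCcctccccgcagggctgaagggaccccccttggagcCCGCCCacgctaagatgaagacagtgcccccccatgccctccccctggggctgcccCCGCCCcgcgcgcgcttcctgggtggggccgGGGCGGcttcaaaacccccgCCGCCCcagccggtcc
Tgfb2: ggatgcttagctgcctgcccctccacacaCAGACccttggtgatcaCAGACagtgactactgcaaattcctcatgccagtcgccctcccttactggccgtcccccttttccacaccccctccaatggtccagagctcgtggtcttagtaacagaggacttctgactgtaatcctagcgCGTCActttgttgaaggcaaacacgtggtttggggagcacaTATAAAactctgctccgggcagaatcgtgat
Inhba: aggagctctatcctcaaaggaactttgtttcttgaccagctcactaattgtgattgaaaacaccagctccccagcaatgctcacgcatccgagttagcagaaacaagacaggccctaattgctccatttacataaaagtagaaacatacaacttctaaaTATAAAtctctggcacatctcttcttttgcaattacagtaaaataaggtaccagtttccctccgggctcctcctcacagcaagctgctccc
Inhbb: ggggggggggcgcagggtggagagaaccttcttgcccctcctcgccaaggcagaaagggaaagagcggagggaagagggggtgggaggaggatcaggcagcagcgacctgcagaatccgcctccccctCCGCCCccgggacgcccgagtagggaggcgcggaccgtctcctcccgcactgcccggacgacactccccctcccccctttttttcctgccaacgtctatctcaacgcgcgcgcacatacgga

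The 4 windows differed in composition. G and C made up 75.2% of the Tgfb1 window and 68% of the Inhbb window, 53.6% of the Tgfb2 window and 43.2% of the Inhba window, beside a median of 52.4% over 32851 promoter windows of the same length. Tgfb1 held 5 GC boxes and Inhbb held 1, an element found in 32.7% of all windows. TATAAA, present in 12.4% of all windows, lay 31 to 26 bases before the Tgfb2 start and 91 to 86 bases before the Inhba start. The Tgfb2 window also held the TGACG core (17.8% of all windows), on the reverse strand 72 to 68 bases before the start, and 2 CAGAC boxes (42.2% of all windows), none of which overlapped another match. TGANTCA, found in 6.75% of all windows, did not occur in these 4, nor in the 5 other windows listed for Tgfbr1, Tgfbr2 and Ltbp1. Tgfb3, Tgfbr3 and Fst had no entry. A match is a description of letters and not a measured binding site, and an antisense transcript, Gm29491, is annotated across the Tgfb2 start.

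In unwounded skin the most abundant of the 10 transcripts was Tgfbr2, the type II receptor that binds TGF-beta, with a median of 80.5 FPKM over 12 libraries and a range of 52.5 to 89.99 FPKM. Tgfb1, the ligand gene best known from platelets and leukocytes, followed at a median level of 31.7 FPKM (19.7 to 35.6). Because FPKM is scaled to transcript length, these levels can be set beside each other across genes. Fst, the gene of follistatin, had a median of 19.6 FPKM, Tgfbr3, which encodes the co-receptor betaglycan, 19.0 FPKM, and Tgfb2, the second ligand gene, 18.4 FPKM. Ltbp1, which encodes a matrix tether of latent TGF-beta, and Tgfb3, the third ligand gene, lay at 10.7 and 10.4 FPKM. The lowest levels were those of Tgfbr1, the type I receptor, at 7.92 FPKM, Inhbb, the inhibin beta B subunit, at 4.33 FPKM, and Inhba, the inhibin beta A subunit that forms activin A, at 0.93 FPKM. Of the neighbours in this order, the ranges of Tgfbr2 and Tgfb1 and those of Inhbb and Inhba did not overlap, and all other neighbours overlapped.

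The order of medians was different in the wounds. Tgfb1 had a median of 69.4 FPKM (60.3 to 76.7), within the range of Tgfbr2 at 76.4 FPKM (61.1 to 93.0). Tgfb2, the fifth in unwounded skin, was the ninth at 7.36 FPKM, below Tgfb3 at 12.6 FPKM, Inhbb at 8.29 FPKM and Tgfbr1 at 7.93 FPKM, though its range overlapped each of theirs. Inhba stayed the lowest of the 10, at 4.19 FPKM. The only neighbours in the wound order whose ranges did not overlap were Tgfb1 and Fst.

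**Figure D1:**
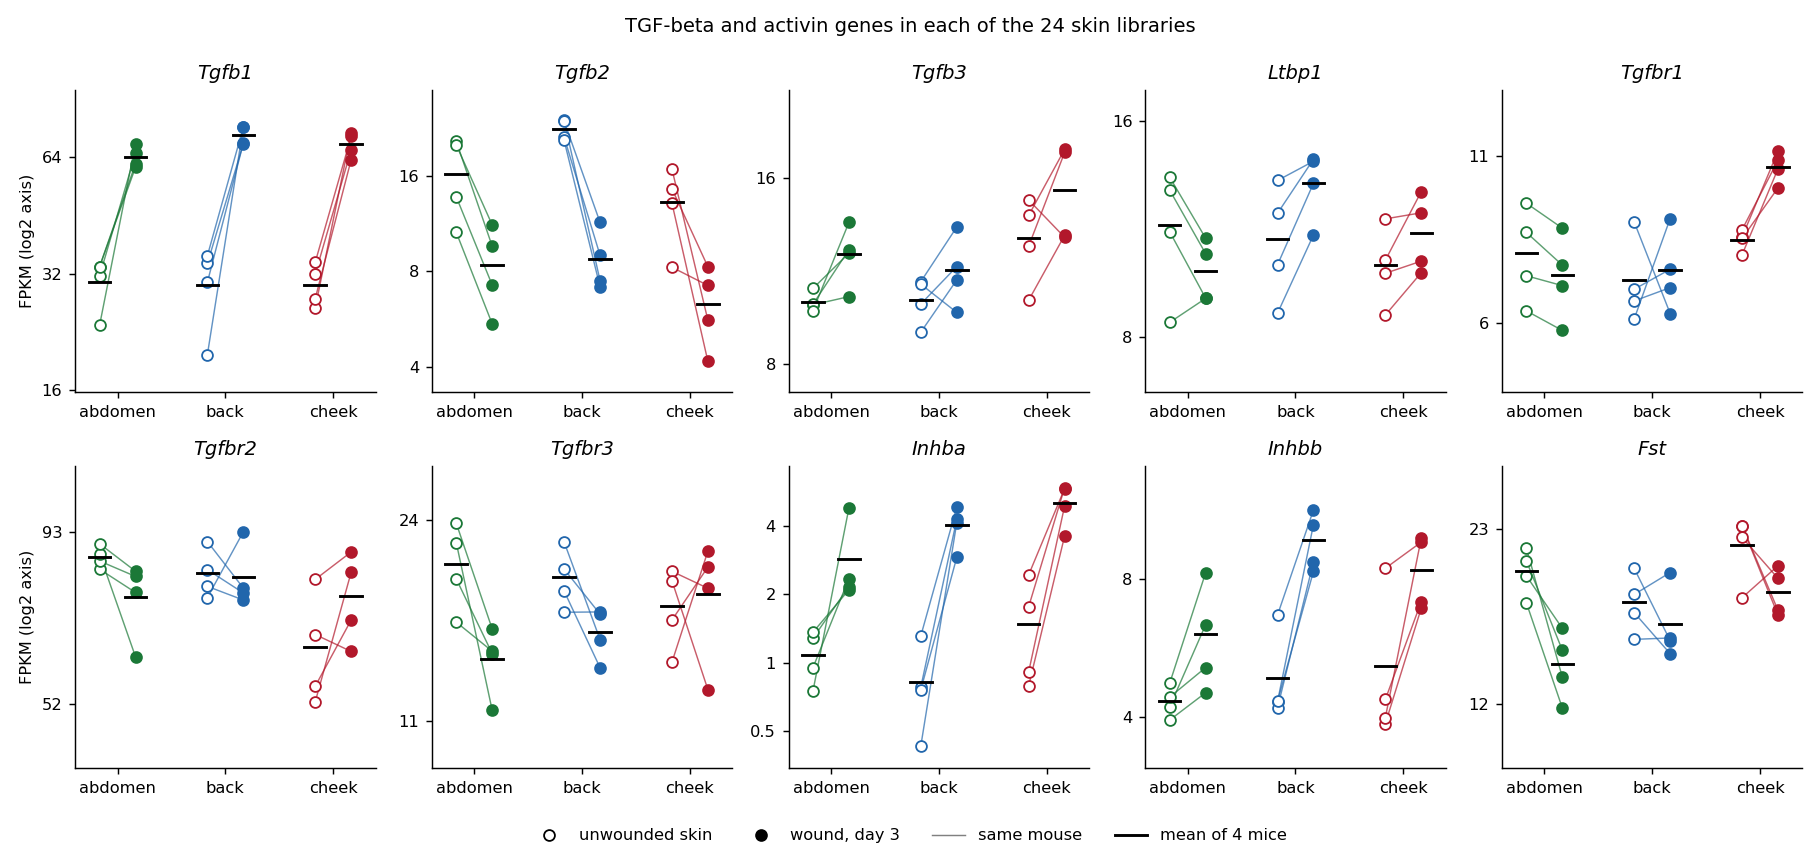
FPKM of each gene in the 24 libraries on a log2 axis, with unwounded skin as open circles, day-3 wounds as filled circles, a line joining the libraries of each mouse and a black bar at the mean of 4 mice. The wound libraries of Tgfb1 and Inhba sit above the unwounded ones at each site, whereas those of Tgfb2 sit below their own unwounded libraries in all 12 mice.

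Each wound was compared with unwounded skin of the same mice on the scale of log2(FPKM + 0.5), a scale that understates changes of low genes, and a gene was called where the adjusted p was under 0.001. All 10 genes passed the filter on low values. In abdomen 1 of them was called (Tgfb1 higher), beside 4.96% of all 14423 genes tested. In back 4 were called (Tgfb1, Inhba and Inhbb higher, Tgfb2 lower), beside 14.4% of all genes, and in cheek 2 were called (Tgfb1 and Inhba higher), beside 8.69%. At an adjusted p under 0.05 the counts were 6 in abdomen, 5 in back and 5 in cheek, beside 32.9%, 45.9% and 36.6% of all genes. Over all genes tested, the median effect was 0.07 in back, -0.01 in abdomen and 0.01 in cheek.

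Tgfb1 rose in wounds at all 3 sites. In abdomen its level was 33.3, 31.5, 33.3 and 23.5 FPKM in the unwounded skin of mice 1 to 4, and 60.3, 65.7, 61.6 and 69.4 FPKM in their wounds. In back the unwounded values were 34.0, 30.4, 35.6 and 19.7 FPKM and the wound values 69.4, 69.6, 76.6 and 76.7 FPKM. In cheek they were 31.9, 26.1, 34.2 and 27.6 FPKM unwounded and 66.9, 74.1, 72.5 and 63.1 FPKM in wounds. No wound library overlapped the unwounded libraries at any site, and mouse 4 of the back and mouse 4 of the abdomen had the lowest unwounded values. Mean FPKM was 2.11 times higher in abdomen wounds, 2.44 times in back wounds and 2.31 times in cheek wounds. The effects on the log2 scale were 1.08 (SE 0.147, adjusted p 0.00023) in abdomen, 1.31 (adjusted p 2.5e-05) in back and 1.199 (adjusted p 6.6e-05) in cheek. In abdomen the call was lost without mouse 2 (adjusted p 0.0012), without mouse 3 (0.0012), without mouse 4 (0.0018) and in a fit of the 8 abdomen libraries alone (0.0038), with effects between 0.92 and 1.15.

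Markers of blood-derived cells moved in the same libraries. Summed macrophage markers (5 genes) lay between 232 and 489 FPKM in unwounded skin and between 598 and 989 FPKM in wounds, with 3 of 5 rising in abdomen and 4 of 5 in back and cheek. Neutrophil markers (5 genes) went from 8.18 to 37.6 FPKM in unwounded skin to 344 to 2388 FPKM in wounds, with 4 of 5 rising in abdomen and 5 of 5 in back and cheek. Platelet markers (5 genes, 4 of which passed the filter) summed to 52.4 to 111 FPKM and to 117 to 277 FPKM, with 1 rising in back and 2 in cheek. Most of the platelet sum was Pf4, at 46.8 to 107 FPKM unwounded and 112 to 269 FPKM in wounds. In back, Itga2b was at 1.65 to 2.43 FPKM unwounded and 1.13 to 1.71 FPKM in wounds. Ppbp there was at 0.06 to 1.02 and 1.51 to 3.61 FPKM. None of these lists had a gene at 0 throughout a group. In bulk tissue a larger share of such cells and more RNA per cell cannot be told apart, and the part of these cells in the result was not tested.

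Tgfb2 had lower values in the wounds. In back, where it fell, its level was 21.2, 24.0, 20.7 and 23.8 FPKM in unwounded skin and 8.99, 7.48, 7.15 and 11.4 FPKM in the wounds of the same mice. Abdomen libraries held 10.6, 20.6, 13.8 and 20.04 FPKM unwounded and 5.46, 9.60, 7.24 and 11.2 FPKM in wounds. Cheek libraries held 14.6, 16.8, 13.1 and 8.24 FPKM unwounded and 8.27, 5.61, 4.16 and 7.22 FPKM in wounds. Every mouse was lower in its wound, with log2 differences between -1.62 and -0.18, but only the back groups were free of overlap. The back effect was -1.33 (SE 0.183, adjusted p 0.00012), and the call was lost without back mouse 2 (0.0014) or back mouse 3 (0.0012). In abdomen the value was -0.91 (adjusted p 0.0030) and in cheek -1.003 (adjusted p 0.0012), both past 0.05 and not past 0.001. The lowest unwounded cheek value came from mouse 4, whose library held the hair shaft genes. Without that mouse the cheek value was -1.28 (adjusted p 7.9e-05) and the abdomen value, unchanged at -0.91, also passed (adjusted p 0.00032).

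Markers of the other cells of the skin were read in the same libraries. Keratinocyte markers summed to 5395 to 10167 FPKM unwounded and 10095 to 18236 FPKM in wounds, and 2 of 5 rose at each site. Adipocyte markers (5 genes) summed to 750 to 1263 FPKM in unwounded back and 459 to 567 FPKM in back wounds, where 2 fell, and to 427 to 1053 and 342 to 787 FPKM at the other sites, where none was called. Of 4 T cell markers 1 fell, in back, with sums of 16.3 to 47.6 FPKM unwounded and 14.4 to 31.9 FPKM in wounds over all sites. Pericyte and smooth muscle markers (5 genes) summed to 119 to 857 and 271 to 584 FPKM, and 1 rose, in back. The back sum was 535 to 793 FPKM unwounded and 311 to 444 FPKM in wounds. Most of it was Des, at 474 to 729 FPKM unwounded and 237 to 365 FPKM in wounds. Rgs5 went the other way, at 25.2 to 37.2 FPKM and 45.0 to 63.7 FPKM. The fibroblast sum was 3104 to 6557 FPKM unwounded and 2600 to 4509 FPKM in wounds, and of its 5 genes none fell and 1 rose, in back and in cheek. The skeletal muscle sum was 359 to 11527 FPKM in unwounded abdomen and 1331 to 3948 FPKM in its wounds. It was 10056 to 15877 and 2350 to 3357 FPKM in back, and 7960 to 15895 and 3587 to 4790 FPKM in cheek. The back and cheek sums were thus lower in wounds without overlap, although none of the 5 muscle genes was called at any site. In that fit all sites shared a single estimate of each gene's spread, the widely ranging abdomen included. The missing calls therefore do not show that muscle transcripts were unchanged. The part of these cells in the Tgfb2 values was not tested.

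Tgfb3, the ligand gene linked in the field to scarless repair, was at 9.78 to 10.6 FPKM in unwounded abdomen, 9.02 to 10.9 FPKM in back and 10.2 to 14.8 FPKM in cheek. Its wound values were 10.3 to 13.6, 9.71 to 13.4 and 12.9 to 17.8 FPKM in the same order, so the groups overlapped at each site. The effects of 0.24, 0.15 and 0.24 did not pass (adjusted p 0.12, 0.30 and 0.11).

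The mixture of the 3 ligand transcripts differed between wound and unwounded skin. Tgfb1 made up 51.6% of the summed FPKM of Tgfb1, Tgfb2 and Tgfb3 in unwounded skin and 76.9% in wounds, a mean difference of 25.3 percentage points (SD 7.11, n = 12 mice) that had the same direction in 12 of 12 mice. In abdomen the share was 53.6% ± 7.82 (SD, n = 4) unwounded and 76.0% ± 2.39 in wounds, in back 47.3% ± 7.64 and 78.4% ± 2.41, and in cheek 53.8% ± 5.84 and 76.2% ± 3.65. The highest unwounded share at any site was 61.8% and the lowest wound share 72.1%. The share is taken within a library, so it does not depend on how libraries were scaled to each other.

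**Figure D2:**
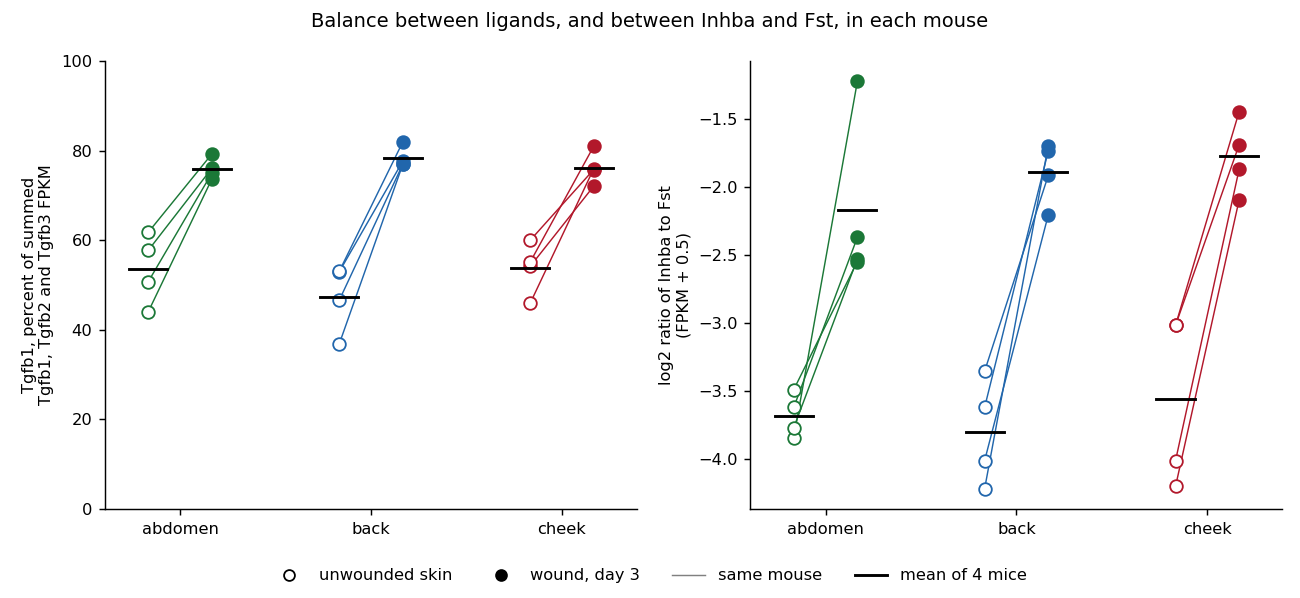
Left, Tgfb1 as a percentage of the summed FPKM of the 3 TGF-beta ligand genes; right, the log2 ratio of Inhba to Fst; both by site, with unwounded skin as open circles, wounds as filled circles, lines joining the libraries of a mouse and bars at the mean of 4 mice. Every line runs upward, with mean differences of 25.3 percentage points on the left and 1.74 on the right.

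Ltbp1 values differed little. They were 8.39 to 13.4 FPKM in unwounded abdomen and 9.06 to 11.0 FPKM in its wounds, 8.64 to 13.2 and 11.1 to 14.2 FPKM in back, and 8.59 to 11.7 and 9.84 to 12.8 FPKM in cheek. The wound was higher in 4 of 4 back mice and 4 of 4 cheek mice and in 1 of 4 abdomen mice. The effects were -0.18 (adjusted p 0.11) in abdomen, 0.26 (adjusted p 0.026) in back and 0.14 (adjusted p 0.21) in cheek, none past 0.001.

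Among 11 other genes of latency and activation, the back and the cheek each had 5 genes that rose and 1 that fell, and the abdomen had 1 that rose. Over all genes, calls made up 14.4% in back, 8.69% in cheek and 4.96% in abdomen. Median effects of the 11 were 0.10 in abdomen, 0.33 in back and 0.51 in cheek, beside -0.01, 0.07 and 0.01 over all genes. Lrrc32 encodes GARP, which holds latent TGF-beta on the cell surface, and it rose at all 3 sites. Its mean in abdomen was 7.18 ± 0.733 FPKM unwounded and 14.95 ± 1.38 FPKM in wounds (± SD, n = 4). Back means were 6.84 ± 1.23 and 17.1 ± 2.50 FPKM, and cheek means 5.88 ± 1.05 and 15.2 ± 2.12 FPKM. The effects were 1.01 (adjusted p 5.0e-05), 1.26 (adjusted p 3.3e-06) and 1.31 (adjusted p 3.3e-06). The 4 other genes that rose in both back and cheek, named after their values were seen, were Thbs1, whose product activates latent TGF-beta, Nrros, the counterpart of GARP on myeloid cells, Ltbp2, a matrix protein of the latent binding family, and Furin, the protease that cleaves the propeptide. Their effects lay between 0.57 and 2.00 in back and between 0.66 and 1.74 in cheek. Ltbp4, another latent binding protein, fell by 1.08 in back and by 0.84 in cheek.

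The TGF-beta receptor genes showed no call at 0.001. Tgfbr1 was at 7.12, 8.33, 6.27 and 9.26 FPKM in the unwounded abdomen of mice 1 to 4 and at 6.87, 7.40, 5.84 and 8.46 FPKM in their wounds, slightly lower in each mouse. In back the values were 6.09, 6.78, 6.50 and 8.65 FPKM unwounded and 8.76, 7.29, 6.82 and 6.21 FPKM in wounds, and the groups overlapped. In cheek they were 8.19, 8.41, 7.68 and 8.15 FPKM unwounded and 11.2, 10.8, 10.5 and 9.79 FPKM in wounds, higher in each mouse and without overlap. The effects were -0.11 (adjusted p 0.50), 0.05 (adjusted p 0.74) and 0.36 (SE 0.113, adjusted p 0.025), the last past 0.05 only.

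Tgfbr2 stood at 82.0 to 89.3 FPKM in unwounded abdomen and 61.1 to 81.4 FPKM in abdomen wounds, lower in 4 of 4 mice and without overlap, with an effect of -0.20 (95% interval -0.46 to 0.05, adjusted p 0.20). Back values were 74.5 to 89.99 FPKM unwounded and 73.9 to 93.0 FPKM in wounds, and cheek values 52.5 to 79.2 and 62.1 to 86.9 FPKM, with effects of -0.02 and 0.25 (adjusted p 0.90 and 0.11). Tgfbr3 was lower in 4 of 4 abdomen wounds without overlap, at 16.2 to 23.7 FPKM unwounded and 11.5 to 15.7 FPKM in wounds, with an effect of -0.51 (adjusted p 0.032). In back and cheek its effects were -0.30 and 0.05 (adjusted p 0.16 and 0.83), and its groups overlapped.

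Of 6 other receptor genes, 1 rose at each site and 1 fell in back and in cheek. The riser was Eng, which encodes the co-receptor endoglin of endothelial cells. Its means were 30.0 ± 3.29 FPKM in unwounded abdomen and 47.6 ± 5.31 FPKM in its wounds, 31.1 ± 6.07 and 54.2 ± 6.51 FPKM in back, and 33.1 ± 2.83 and 54.7 ± 5.46 FPKM in cheek, with effects of 0.66, 0.80 and 0.71. Summed endothelial markers (5 genes) were 68.7 to 105 FPKM in unwounded skin and 96.8 to 130 FPKM in wounds, and their part in the Eng result was not tested. Acvr2b, an activin type II receptor, was the gene that fell, by 0.88 in back and by 0.81 in cheek. Median effects over these 6 were -0.20, -0.12 and -0.16, beside -0.01, 0.07 and 0.01 over all genes.

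Inhba, the activin A subunit, showed the largest fold between mean wound and mean unwounded FPKM of the 10 genes at each site. In back it was at 1.31, 0.43, 0.78 and 0.76 FPKM in unwounded skin and at 4.82, 4.12, 4.26 and 2.90 FPKM in wounds. Cheek libraries held 0.91, 0.79, 2.43 and 1.76 FPKM unwounded and 4.88, 3.60, 5.82 and 5.88 FPKM in wounds. Abdomen libraries held 0.75, 0.95, 1.28 and 1.36 FPKM unwounded and 4.78, 2.34, 2.16 and 2.09 FPKM in wounds. The groups did not overlap at any site, and within the abdomen wounds mouse 1 stood well above the 3 others. Mean FPKM was 4.91 times higher in back wounds, 3.43 times in cheek wounds and 2.62 times in abdomen wounds. On the scale of log2(FPKM + 0.5), however, the abdomen effect of Tgfb1 (1.08) was slightly larger than that of Inhba (1.03). Inhba rose in back (1.80, SE 0.233, adjusted p 7.3e-05) and in cheek (1.55, adjusted p 0.00031), while the abdomen value of 1.03 did not pass 0.001 (adjusted p 0.0057). The cheek call was lost without cheek mouse 1 (0.0025), mouse 2 (0.0027) or mouse 4 (0.0014), and in a fit of the 8 cheek libraries alone (0.0017), with effects between 1.42 and 1.57.

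Mouse 1 of the abdomen, with the highest Inhba of its group, also had the highest neutrophil sum of any library, 2388 FPKM, against 1196, 687 and 344 FPKM in the abdomen wounds of mice 2 to 4. That sum was mostly S100a8 and S100a9, which reached 994 and 1348 FPKM in abdomen wounds. Csf3r, Cxcr2 and Retnlg reached 17.6, 15.9 and 19.1 FPKM there, and more in cheek wounds, up to 39.7, 27.7 and 22.5 FPKM. Without abdomen mouse 1 the abdomen effect of Inhba was 0.68 (adjusted p 0.024). The wound library of mouse 1 also had the highest keratinocyte sum of any library, 18236 FPKM, against 13211, 15024 and 10403 FPKM in mice 2 to 4. Its skeletal muscle markers summed to 1331 FPKM and its pancreas genes to 1.68 FPKM, both the lowest of the abdomen wounds. The part of any of these cells in the Inhba values was not tested.

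Inhbb rose in back, from 6.68, 4.32, 4.19 and 4.33 FPKM in unwounded skin to 11.3, 10.5, 8.72 and 8.32 FPKM in wounds, with no overlap and an effect of 0.94 (SE 0.146, adjusted p 0.00026). In abdomen it was at 4.74, 4.21, 4.42 and 3.94 FPKM unwounded and 8.26, 6.36, 5.13 and 4.52 FPKM in wounds, and in cheek at 4.37, 3.87, 3.99 and 8.45 FPKM unwounded and 7.15, 6.92, 9.84 and 9.64 FPKM in wounds. All 12 mice were higher in the wound, but the abdomen and cheek groups overlapped. Their effects were 0.41 (adjusted p 0.044) and 0.70 (adjusted p 0.0027). The highest unwounded value, 8.45 FPKM, was that of cheek mouse 4 with its hair shaft genes, and without that mouse the cheek effect was 0.87 (adjusted p 0.00079). The back call was lost without back mouse 2 (0.0028), mouse 3 (0.0020) or mouse 4 (0.0016), and without the pairing of libraries by mouse, that is, with no replicate block (0.0011).

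Fst, whose product binds activin, had lower values in the abdomen wounds. It was at 17.5, 19.3, 21.4 and 20.4 FPKM in unwounded abdomen and at 11.8, 15.9, 13.3 and 14.7 FPKM in the wounds, lower in 4 of 4 mice and without overlap. Back held 15.3 to 19.9 FPKM unwounded and 14.5 to 19.6 FPKM in wounds, and cheek 17.8 to 23.3 and 16.7 to 20.1 FPKM. The effects were -0.49 (SE 0.111, adjusted p 0.0057) in abdomen, -0.12 (adjusted p 0.42) in back and -0.24 (adjusted p 0.11) in cheek, so none passed 0.001.

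The log2 ratio of Inhba to Fst, with 0.5 FPKM added to each, had a mean of -3.68 in unwounded skin and -1.94 in wounds. The mean difference was 1.74 (SD 0.534, n = 12 mice), in the same direction in 12 of 12 mice. By site it was 1.52 (SD 0.752) in abdomen, 1.92 (SD 0.451) in back and 1.79 (SD 0.403) in cheek. The wound library with the highest ratio, -1.22, was again that of abdomen mouse 1. Fst transcripts remained more abundant than Inhba transcripts in all wounds.

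**Figure D3:**
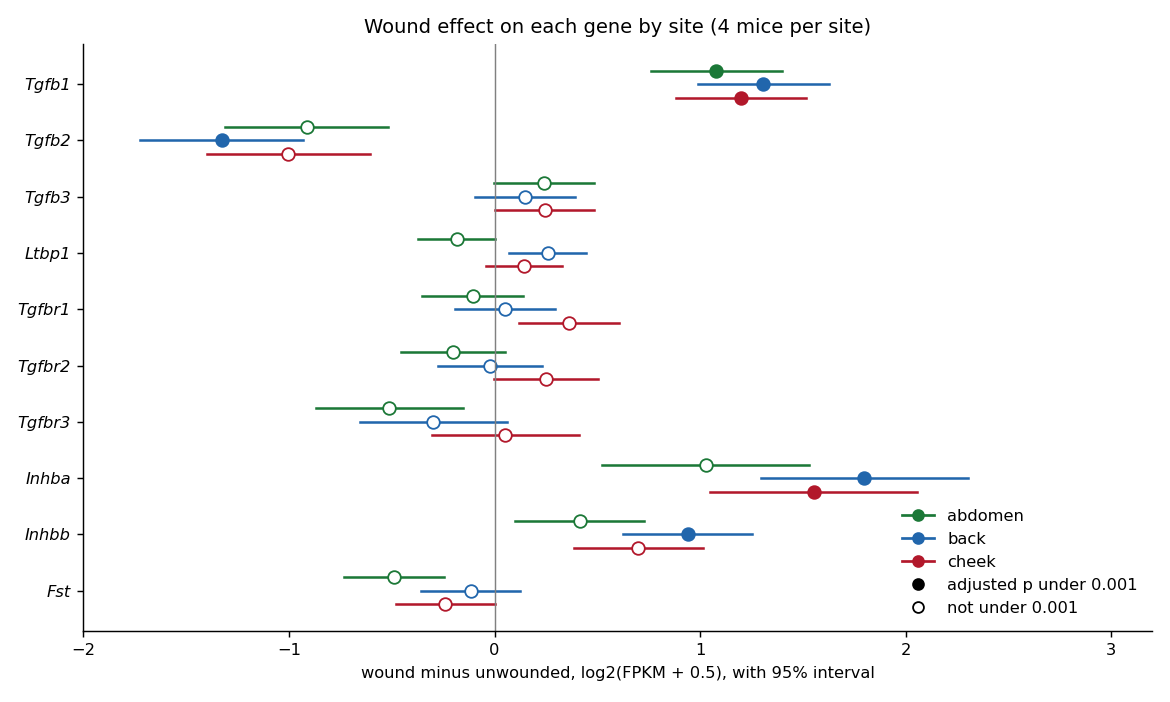
Wound minus unwounded difference of log2(FPKM + 0.5) for each gene and site, with its 95% interval from the fit over 24 libraries; filled circles mark an adjusted p under 0.001. Tgfb1 lies near 1 at each site, Inhba and Tgfb2 lie on opposite sides of 0, and no receptor is filled.

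The remaining pathway genes were counted by role. Over all genes, calls at 0.001 made up 4.96% in abdomen, 14.4% in back and 8.69% in cheek. Among 6 other ligands and soluble antagonists, 1 rose in back and 1 in cheek, and in abdomen 1 was higher and 2 were lower at an adjusted p under 0.05, where 32.9% of all genes were called. The list had median effects of -0.10, -0.27 and -0.02. The gene that rose was Bgn, which encodes biglycan, a matrix proteoglycan that binds TGF-beta, with effects of 0.59 (adjusted p 0.0013), 0.73 (adjusted p 0.00014) and 1.02 (adjusted p 1.6e-05). Among 13 genes of intracellular signalling and feedback, 1 rose in abdomen, 2 in back and 1 in cheek, with median effects of -0.05, -0.14 and -0.06. Pmepa1, a TGF-beta-induced inhibitor of SMAD signalling, rose at all 3 sites, by 0.98, 0.87 and 1.06, from means of 12.5 to 15.01 FPKM to means of 26.4 to 28.4 FPKM. Tgif1, a SMAD co-repressor, was the other gene called in back, at 0.63.

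Of the 9 target genes reported here, 0 passed 0.001 in limma at any site, and at an adjusted p under 0.05 there were 1 higher and 2 lower in abdomen, 2 higher and 1 lower in back, and 3 higher and 1 lower in cheek. At that threshold 32.9%, 45.9% and 36.6% of all genes were called, and at 0.001 the shares were 4.96%, 14.4% and 8.69%. Median effects of the 9 target genes were -0.16, 0.16 and 0.13, beside -0.01, 0.07 and 0.01 over all genes. The smallest adjusted p was that of Cdkn1a, which encodes the cell cycle inhibitor p21. Its means were 129 ± 28.6 FPKM in unwounded abdomen and 188 ± 28.8 FPKM in its wounds, 101 ± 9.03 and 164 ± 10.7 FPKM in back, and 127 ± 22.6 and 174 ± 29.1 FPKM in cheek (± SD, n = 4). The effects were 0.56 (adjusted p 0.0099), 0.69 (adjusted p 0.0018) and 0.46 (adjusted p 0.024). Col1a1, the main collagen of skin, had values of -0.68 (adjusted p 0.025), -0.9995 (adjusted p 0.0020) and -0.84 (adjusted p 0.0073), a gene named after its values were known. The other genes past 0.05 were named likewise. Acta2 was higher in back (0.51, adjusted p 0.0027) and in cheek (0.43, adjusted p 0.0088). Postn was higher in cheek (0.79, adjusted p 0.0026), and Ctgf was lower in abdomen (-0.44, adjusted p 0.018). These lists were described by counts and medians only and not tested as sets.

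**Figure D4:**
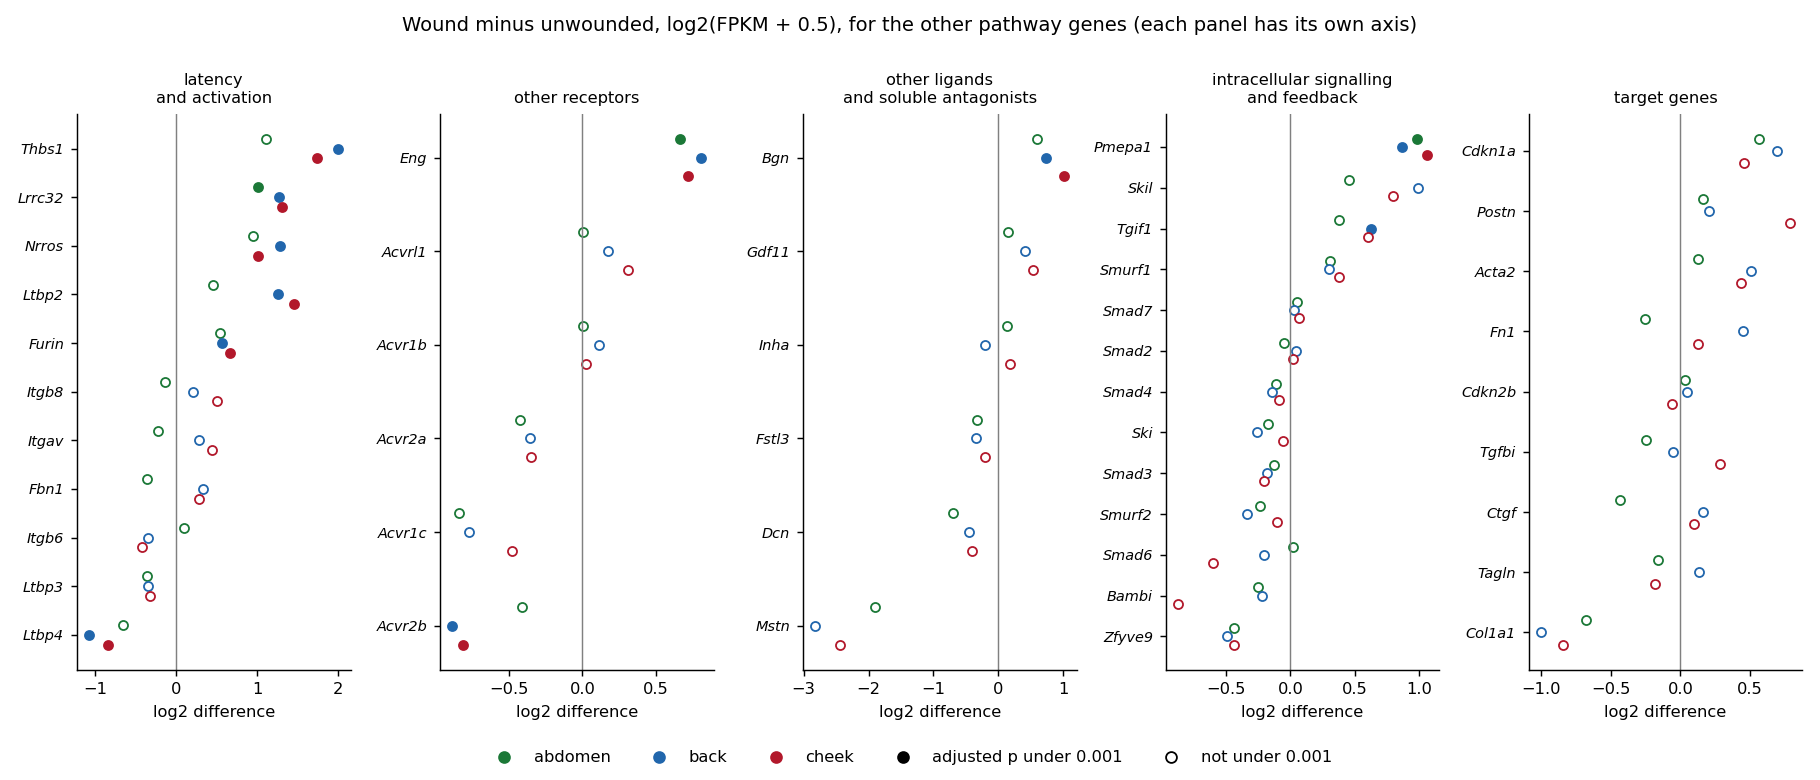
Wound minus unwounded difference of log2(FPKM + 0.5) for 45 other pathway genes in 5 lists, coloured by site, with filled circles for an adjusted p under 0.001; each panel has its own horizontal axis. Lrrc32, Eng and Pmepa1 are filled at all 3 sites.

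Whether the wound effect itself differed between sites was tested in the same fit. None of the 10 genes passed at an adjusted p under 0.05 in limma's F test over the 3 sites, beside 0.0208% (3) of 14423 genes (315 without abdomen mouse 1, with none of the 10 among them), and 2 of the 10 had an unadjusted p under 0.05. The smallest was that of Ltbp1 (p 0.0080, adjusted p 0.25), whose effect in back exceeded that in abdomen by 0.44 (95% interval 0.18 to 0.70). Tgfbr1 followed (p 0.034, adjusted p 0.35), with a cheek effect 0.47 above the abdomen effect (95% interval 0.12 to 0.82, adjusted p 0.33). For Tgfb1 the intervals of the 3 differences between sites ran from -0.56 to 0.68. Calls made at some sites and not at others, as for Tgfb2, Inhba and Inhbb, are therefore not shown to be differences between sites. Tested pair by pair in limma, 0 of the 10 genes were called for back minus abdomen (4 at an unadjusted p under 0.05), beside 0% of all genes, 0 for cheek minus abdomen (4 unadjusted), beside 0.00693%, and 0 for cheek minus back (0 unadjusted), beside 0.0277%.

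Unwounded skin, which came from animals wounded nearby, was compared between sites to ask whether the pathway differs outside the wound. At an adjusted p under 0.05, 0 of the 10 genes were called between back and abdomen, beside 2.67% of 13956 genes, 0 between cheek and abdomen, beside 2.57%, and 0 between cheek and back, beside 1.05%. At an unadjusted p under 0.05 the counts were 1, 2 and 4. The nearest to a call was Tgfbr2, at 63.2 ± 12.1 FPKM (SD, n = 4) in cheek and 85.5 ± 3.11 FPKM in abdomen, a difference of -0.45 (95% interval -0.72 to -0.18, adjusted p 0.070). The lowest cheek values of Tgfbr2, 52.5 and 55.3 FPKM, were those of mice 4 and 3, and without mouse 4 the difference was -0.37 (adjusted p 0.15), whereas without cheek mouse 1 it was -0.57 and passed (adjusted p 0.034). Tgfb2 was at 13.2 ± 3.63 FPKM in cheek and 22.4 ± 1.71 FPKM in back, without overlap between the groups, a difference of -0.78 (adjusted p 0.11) that was -0.58 (adjusted p 0.22) without cheek mouse 4. Of the 45 other pathway genes, Fstl3, a follistatin-like activin antagonist, was called, lower in cheek than in abdomen by 0.53 (adjusted p 0.031). The all-gene median was itself at -0.12 between back and abdomen and at 0.14 between cheek and back.

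Wounds were then compared between sites. Tgfbr1 was higher in cheek wounds, at 10.6 ± 0.591 FPKM (SD, n = 4), than in abdomen wounds at 7.14 ± 1.09 FPKM, a difference of 0.54 (SE 0.118, adjusted p 0.019), and than in back wounds at 7.27 ± 1.09 FPKM, a difference of 0.52 (adjusted p 0.044). The 4 cheek wounds, at 9.79 FPKM or more, did not overlap the other 8, of which the highest was 8.76 FPKM. Fst was higher in cheek wounds, at 18.2 ± 1.64 FPKM, than in abdomen wounds, at 13.9 ± 1.76 FPKM, a difference of 0.38 (adjusted p 0.0498). So 2 of the 10 genes were called between cheek and abdomen wounds, beside 10.8% of 14023 genes, 1 between cheek and back wounds, beside 2.5%, and 0 between back and abdomen wounds, beside 1.27% (3 at an unadjusted p under 0.05).

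The Tgfbr1 difference from abdomen wounds was called with any of the 12 mice left out, with an adjusted p of at most 0.0499, and in all 9 other settings. That from back wounds was called in 5 of 12 such fits and in 4 of 9 settings, and Fst in 2 of 12 and 2 of 9. With the mouse number as a replicate block, Fst and the Tgfbr1 difference from back wounds were not called. Inhba values were 5.05 ± 1.07 FPKM in cheek wounds, 4.03 ± 0.809 FPKM in back wounds and 2.84 ± 1.30 FPKM in abdomen wounds. The cheek and abdomen values differed by 0.78 (adjusted p 0.0525), and without abdomen mouse 1, the highest of its group, by 1.02 (adjusted p 0.010). Inhbb was at 9.73 ± 1.44 FPKM in back and 6.07 ± 1.65 FPKM in abdomen wounds, a difference of 0.66 (adjusted p 0.088) that was 0.81 (adjusted p 0.036) without the same mouse.

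Among the other pathway genes, 1 of 44 was called between back and abdomen wounds, 5 between cheek and abdomen wounds and 1 between cheek and back wounds, shares of 2.27%, 11.4% and 2.27% beside 1.27%, 10.8% and 2.5% of all genes. The genes below are given as values only. Ltbp2 was higher in back than in abdomen wounds, by 0.80, and in cheek than in abdomen wounds, by 0.68. Itgav, an integrin subunit that takes part in releasing TGF-beta, was higher in cheek than in abdomen wounds by 0.83. Cdkn2b, Fstl3 and Tagln were lower in cheek than in abdomen wounds, and Acvr2a, an activin type II receptor, was higher in cheek than in back wounds by 0.52. All 6 names were chosen from these values.

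**Figure D5:**
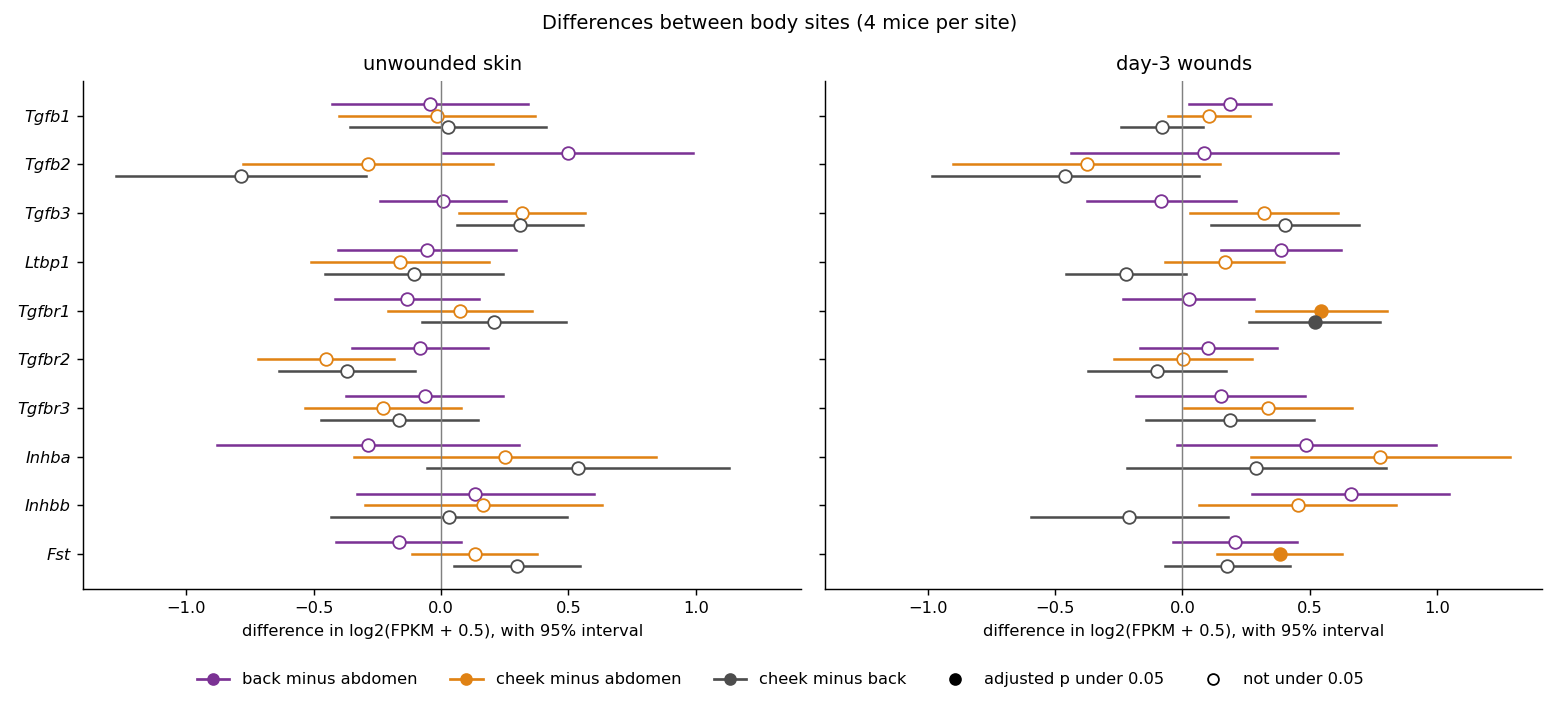
Differences between body sites in log2(FPKM + 0.5) with 95% intervals, for unwounded skin on the left and day-3 wounds on the right, with filled circles at an adjusted p under 0.05. Filled circles occur in the wound panel for Tgfbr1 (0.54 and 0.52) and Fst (0.38), and the unwounded panel has none.

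Genes with the most similar profile were found by the root mean square difference of centred log2(FPKM + 0.5) over the 24 libraries. Nearest to Tgfb1 were Efhd2 (0.12) and Ppp1r18 (0.13), beside a root mean square of 0.63 for Tgfb1 itself. The nearest to Tgfb2 were Col1a2 (0.22), a chain of type I collagen, and Sparc (0.23), a collagen-binding matrix protein, beside 0.68 for Tgfb2. Inhba lay nearest to Slc20a1 (0.27), a phosphate transporter, and Rrm2 (0.32), a subunit of ribonucleotide reductase, beside 0.85. For Inhbb the nearest were Prep (0.20) and Slc16a6 (0.24), beside 0.48, and a neighbour of Tgfbr1 was Lims1 (0.11), beside 0.25. The nearest genes of the 5 others were 0.13 to 0.17 away while those genes' own values were 0.21 to 0.26, so their profiles held little variation to match. The libraries are shared by all genes, so this is a description of likeness over the same 12 mice.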

How the data were processed

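Total RNA from full-thickness skin was sequenced (BGISEQ-500, 100 bp paired-end). Per the labels and the study's methods, reads were handled with HISAT2, Bowtie2 2.2.5 and RSEM 1.2.12 on GRCm38, and the authors deposited FPKM values per gene, which hold no counts, so depth is unknown. FPKM sums were 490830 to 608888 per library, with 15781 to 16577 genes above 0. A second table held the authors' fold changes and adjusted p-values for 9 comparisons (DESeq2) and was not used.

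A gene entered a fit where 4 or more of its libraries reached 0.5 FPKM, and was tested by limma 3.58.1 (trend and robust moderation) on log2(FPKM + 0.5), with Benjamini-Hochberg adjustment over all tested genes. Wound effects were fitted over 24 libraries with a term per mouse (threshold 0.001), and sites over the 12 libraries of a state (threshold 0.05). The labels give mouse numbers, and each mouse had a single site. Wound and unwounded libraries of a mouse deviated together (mean correlation 0.32, 0.35 and 0.28 for abdomen, back and cheek, against -0.11, -0.12 and -0.096 between different mice, with 1 abdomen pair at -0.03). Deviations within a group of 4 tie the values between different mice to those of the same mouse, so they are no independent comparison. The scripts were tested on simulated data.

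The 10 genes, the lists and the tests were chosen with earlier results of these data known, so shares and ratios carry no p. Other pathway genes were named where called at 3 sites, or otherwise as the list's smallest adjusted p; the text says where a name falls outside this rule. Trac and Prss1 were not found by symbol. A gene of the target list and a gene of similar profile are not reported here, so counts of that list and of the pathway genes cover the reported genes only. P-values of wound effects are set against the spread of within-mouse changes, pooled over sites, and those of site comparisons against the spread between mice.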

Additional observations from a re-analysis of the deposited data

Results flagged for a closer look

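In groups of 4 libraries, a value far from the 3 others was found in 5 of the 60 combinations of gene and group, where chance gives about 1 in 20. Inhba in the abdomen wound of mouse 1 was 4.78 FPKM (nearest 2.34 FPKM). Inhbb in the unwounded cheek of mouse 4 was 8.45 FPKM (nearest 4.37 FPKM), and in the unwounded back of mouse 1 it was 6.68 FPKM (nearest 4.33 FPKM). In the back wound of mouse 1, Tgfbr2 was 93.0 FPKM (nearest 76.9 FPKM) and Fst was 19.6 FPKM (nearest 15.3 FPKM).

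The wound effect on Tgfbr1 was above 0 in 4 of 4 cheek mice and below 0 in 4 of 4 abdomen mice, a difference of 0.47 on the log2 scale. Tested in limma over all genes, this difference had an adjusted p of 0.33.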

How the results depend on the processing

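No member gene called in any setting changed sign. Over the settings other than a left-out mouse, 874 of the members' values kept their side of the threshold, 15 lost a call and 1 gained a call. With a mouse left out, 1164 kept it, 28 lost a call and 8 gained a call. Depth is unknown, so its limit on the low genes could not be set.

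At an adjusted p under 0.05, 6 of the 10 genes were called for the abdomen wound effect and 5 for that of cheek. With each site fitted on its own 8 libraries, 0 were called in abdomen and 1 in cheek (67 and 248 of all genes), with fewer libraries in each fit. In back the same kind of fit called 4 (2204 of all genes). With all 24 libraries as 6 groups, 1 gene (Tgfbr2) was called between unwounded cheek and abdomen. Between cheek and abdomen wounds 1 gene was called, Fst being lost, with a pseudocount of 0.1, no filter, median-ratio scaling, quantile normalization, plain moderation, all 24 libraries or a replicate block. Between cheek and back wounds 0 were called with no filter, median-ratio scaling, quantile normalization, all 24 libraries or a replicate block. The cause was not tested.

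Leaving out each mouse gave 0 to 2 calls for the wound effect in abdomen, 2 to 4 in back and 1 to 3 in cheek, 0 to 0 for differences of the wound effect between sites, 0 to 0 between unwounded back and abdomen, 0 to 1 between unwounded cheek and abdomen and 0 to 0 between unwounded cheek and back, and 0 to 1, 1 to 3 and 0 to 1 between wounds in that order. The Tgfb1 share difference stayed between 24.0 and 26.2 points and the Inhba to Fst difference between 1.66 and 1.81.

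Without the replicate block the wound effect in back gave 3 calls, Inhbb being lost, and the counts in abdomen and cheek were the same. Across sites, equal numbers were read as different mice (mean correlation -0.17 to 0.018). A block on that number left 206 genes between unwounded back and abdomen, 91 between cheek and back, 28 between back and abdomen wounds and 120 between cheek and back wounds.

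Over all genes, counts also moved by more than 1.5 times as follows. At 0.05, 4741, 6622 and 5272 genes were called for the 3 wound effects. Genes whose wound effect differed between sites numbered 3, against 1 to 9 in other settings that kept all mice. With all 24 libraries as 6 groups, unwounded sites gave 1527, 1266 and 1055 genes and wounds 91, 769 and 119. Median-ratio scaling gave 209 between unwounded back and abdomen and 182 between cheek and back wounds, quantile normalization 160 for the latter, and plain moderation 106 between back and abdomen wounds. Leaving out each mouse, the counts ran from 293 (without abdomen mouse 3) to 833 for the abdomen wound effect (715 with all mice), from 910 (without back mouse 2) to 2322 for back (2074), from 543 (without cheek mouse 2) to 1503 for cheek (1254), and from 1 to 315 (without abdomen mouse 1) for effects that differed between sites. Between unwounded sites they ran from 109 (without abdomen mouse 2) to 543 for back and abdomen (373), from 81 (without cheek mouse 2) to 693 (without abdomen mouse 4) for cheek and abdomen (358), and from 73 (without back mouse 2) to 154 for cheek and back (147). Between wounds they ran from 22 (without back mouse 1 or 3) to 285 (without abdomen mouse 1), from 508 (without abdomen mouse 3) to 1703, and from 48 (without back mouse 4) to 1095 (without abdomen mouse 3), against 178, 1519 and 351 with all mice.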
